A study of Mus musculus with 8 samples.

Results

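Ager, Emp2 and Vegfa are 3 genes expressed by type 1 alveolar epithelial cells, and they were followed here in the lungs of mice transgenic for Fra-2, the AP-1 transcription factor encoded by Fosl2. They were taken by gene name and with their lower ratios in these same arrays already known, so their ratios are given as a description without a test. They had 4 probes, 1 for Ager, 2 for Emp2 and 1 for Vegfa, of 20794 on the arrays. Lung RNA of 4 transgenic males, aged 14 weeks and of C57BL6 x CBA background, was hybridised against 1 pool made from the lungs of 4 wild-type males matched in age and background. Each transgenic mouse had 2 arrays with the dyes exchanged, which gave 8 arrays. The promoter that drives the transgene is not given in the sources used here, and no probe is named for Fosl2, so the transgene itself was not measured here.

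Every value is a log2 ratio, transgenic over pool, so a ratio of -1 is a level at 50% of the pool. This direction is likely only: its basis is the order of channels in the labels, where the transgenic RNA stands first on every array, and if it ran the other way all rises and falls would exchange. Gene names rest on an inferred shift of 11 from annotation number to row of the values. Around the numbers of Ager, Vegfa and the second Emp2 probe that shift stood clearly above all others tried (Spearman correlation of probes of the same gene 0.253 against at most 0.134, and 0.222 against at most 0.120). Around the first Emp2 probe it was the best by a small margin (0.119 against 0.101). Ratios carry no level, so the lung itself could not be checked against marker levels. The arrays gave 20585 to 20729 usable ratios each, and the number of mice, 4, limits the precision. The interquartile range of the log2 ratios was 0.451 to 0.521 on 7 arrays and 0.906 on the Cy3 array of mouse 4, so results that rest on that array are given with and without it.

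Type 1 alveolar cells are thin, flat cells that cover most of the surface of the air sacs and form the epithelial side of the barrier for gas exchange. Ager encodes RAGE, a receptor of the immunoglobulin superfamily that binds S100 proteins, HMGB1 and other ligands and is most abundant in type 1 cells. Emp2 encodes a small protein with 4 membrane-spanning segments, of the family of peripheral myelin protein 22, that affects integrins and caveolins at the cell surface. Vegfa encodes the growth factor VEGF-A, which the alveolar epithelium secretes and which acts on receptors of the adjoining capillary endothelium. All 3 genes, Emp2 and Vegfa more so than Ager, are also expressed by other cells, so their RNA in whole lung is not type 1 RNA alone. In whole-lung RNA, fewer cells of a type, less RNA per cell and a larger share of RNA from other cells cannot be told apart.

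The sequence before the start of a gene is shown for Emp2 and Vegfa because Fra-2 binds DNA as part of AP-1, and because these are the windows that lie wholly outside the annotated gene. They are RefSeq sequences of build GRCm38.p6, 250 bases long and written 5′ to 3′ on the strand of the gene, which is the minus strand for both. Capitals mark the GC box GGGCGG, searched on both strands, so that CCGCCC in capitals is a match on the other strand.
Emp2, chr16:10313969-10314218: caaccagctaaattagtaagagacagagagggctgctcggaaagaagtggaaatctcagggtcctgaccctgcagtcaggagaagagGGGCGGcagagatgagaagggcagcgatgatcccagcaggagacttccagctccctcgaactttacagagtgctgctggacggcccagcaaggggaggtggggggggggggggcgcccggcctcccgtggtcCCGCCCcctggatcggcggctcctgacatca
Vegfa, chr17:46032378-46032627: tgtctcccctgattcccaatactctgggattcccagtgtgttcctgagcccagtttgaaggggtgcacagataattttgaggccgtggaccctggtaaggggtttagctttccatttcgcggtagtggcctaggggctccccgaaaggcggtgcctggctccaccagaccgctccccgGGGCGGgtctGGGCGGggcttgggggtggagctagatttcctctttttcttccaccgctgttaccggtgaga

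Emp2 held 2 GC boxes, which begin 163 and 31 bases before the gene start, and Vegfa held 2, at 72 and 62 bases. Of 32851 RefSeq windows of the same length, 32.7% held at least 1. The AP-1 site TGANTCA, whose reverse complement is the same pattern, was in neither window, and 6.75% of all windows held it. The related site TGACGTCA, also its own reverse complement, and the TEAD core GGAATG were in neither, against 1.55% and 12.6% of all windows. The cores of the hypoxia response element, ACGTG and GCGTG on either strand, were also in neither, against 16.6% and 28.2%. The window of Ager lies inside the annotated gene, is not printed, and held none of these 6 patterns. A second Vegfa window, at an internal start, held 1 GC box, 1 ACGTG and 1 GCGTG. Only 250 bases before each start were searched, so sites farther away are not covered. The letters G and C made up 62.8% of the Emp2 window, 59.2% of the first Vegfa window and 57.6% of the Ager window, against a median of 52.4% over all windows.

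All 4 probes were lower in the transgenic lungs than in the pool on all 8 arrays. Of 20392 probes with a value on every array, 14.7% were below 0 on all 8, and of 20621 probes tested with limma 25.7% passed an adjusted p of 0.05 (14.6% lower, 11.1% higher). Since the genes were taken from this contrast, nothing is read from those shares. The mean levels were 58.4% of the pool for Ager, 58.2% and 44.4% for the first and second Emp2 probes, and 61.1% for Vegfa. Among the probes tested, 1.94% had a lower mean ratio than Ager, 1.90% and 0.344% than the first and second Emp2 probes, and 2.66% than Vegfa.

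**Figure D1:**
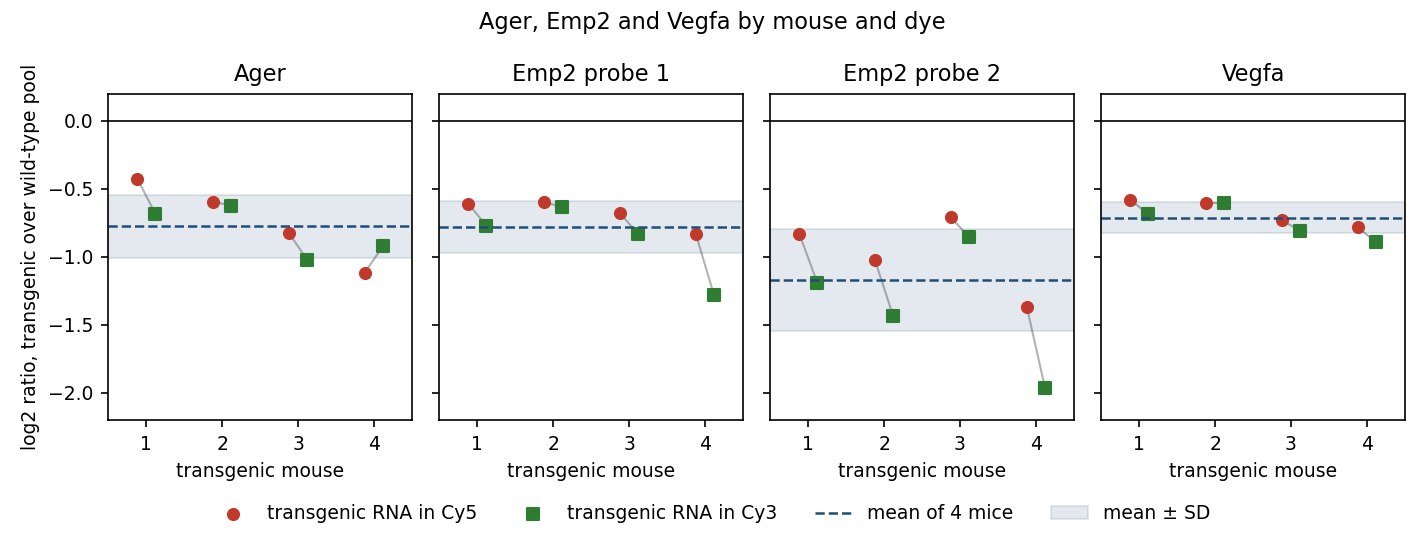
Log2 ratio of transgenic lung over the wild-type pool (vertical axis) in each of 4 transgenic mice (horizontal axis) for the Ager probe, both Emp2 probes and the Vegfa probe. Circles are arrays with the transgenic RNA in Cy5 and squares arrays with it in Cy3, the dashed line is the mean of 4 mice, and the shaded band is 1 SD on either side. All 32 points lie below 0, and the second Emp2 probe has the widest spread, with an SD of 0.38 against 0.11 for Vegfa.

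Ager had log2 ratios of -0.425 and -0.685 in mouse 1, -0.595 and -0.624 in mouse 2, -0.825 and -1.023 in mouse 3, and -1.116 and -0.921 in mouse 4, with the transgenic RNA in Cy5 and in Cy3. Mice 1 and 2 were at 68.1% and 65.5% of the pool, and mice 3 and 4 at 52.7% and 49.4%, so the 4 mice fell into a higher and a lower pair whose arrays did not overlap. The mean log2 ratio was -0.78 ± 0.23 (SD, n = 4 mice). Over all arrays, between 1.04% and 11.96% of the probes of an array lay below Ager.

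The first Emp2 probe had log2 ratios of -0.609 and -0.772 in mouse 1, -0.599 and -0.634 in mouse 2, -0.678 and -0.835 in mouse 3, and -0.831 and -1.282 in mouse 4, in the same order of dyes. Its mean was -0.78 ± 0.19 (SD, n = 4), with mice 1 to 3 at 59.2% to 65.2% of the pool and mouse 4 at 48.1%. The second Emp2 probe had -0.830 and -1.192 in mouse 1, -1.027 and -1.437 in mouse 2, -0.711 and -0.855 in mouse 3, and -1.367 and -1.961 in mouse 4. Its mean was -1.17 ± 0.38 (SD, n = 4), with mouse 3 highest at 58.1% of the pool and mouse 4 lowest at 31.6%. The second probe read below the first on all 8 arrays, by 0.02 to 0.80 on the log2 scale.

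The gap between the Emp2 probes was -0.39 ± 0.28 (SD, n = 4 mice). It was -0.32, -0.62, -0.03 and -0.61 in mice 1 to 4, so the probes nearly met in mouse 3 and stood apart in mice 2 and 4. An exact sign-flip test over the 4 mice, two-sided, gave p = 0.125, which is the smallest value that 4 mice allow. Probe sequences were not used here, so which transcripts each probe reads is not known. The name of the first probe is also less sure, since the shift was best there by a small margin (0.119 against 0.101). Averaged over both probes, Emp2 stood at 50.8% of the pool (-0.98 ± 0.26, SD, n = 4).

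Vegfa had log2 ratios of -0.581 and -0.686 in mouse 1, -0.603 and -0.606 in mouse 2, -0.729 and -0.811 in mouse 3, and -0.784 and -0.892 in mouse 4, in the same order of dyes. It was the most even of the 3 genes, with mice at 64.5%, 65.8%, 58.6% and 55.9% of the pool and a mean of -0.71 ± 0.11 (SD, n = 4). The dye-swapped arrays of mouse 2 differed by 0.003 and those of the other mice by 0.08 to 0.11. As for Ager, mice 1 and 2 were above mice 3 and 4 on every array.

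**Figure D2:**
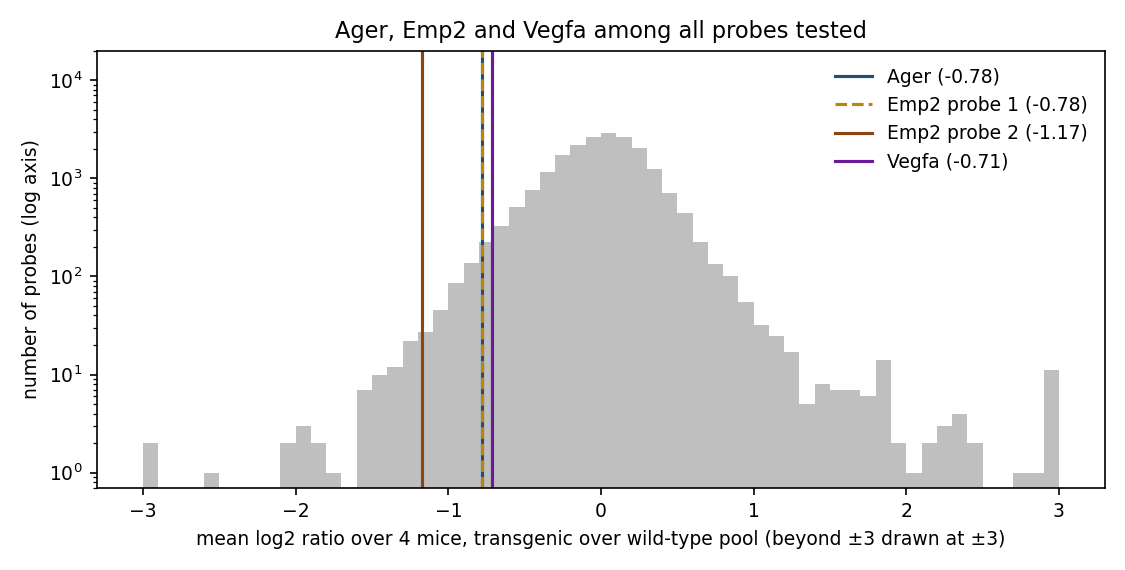
Number of probes (vertical axis, log scale) at each mean log2 ratio over 4 mice, transgenic over wild-type pool (horizontal axis), for the 20621 probes tested. The vertical lines mark the Ager probe and the first Emp2 probe, both at -0.78, the Vegfa probe at -0.71 and the second Emp2 probe at -1.17, all in the lower tail.

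How the mice differed from each other was not used to choose the genes, and it was tested with limma on the single arrays with the dye as a covariate. None of the 4 probes passed (adjusted p = 0.36 for Ager, 0.413 and 0.158 for the Emp2 probes, and 0.608 for Vegfa), while 0.986% of all 20392 probes did. Without adjustment 3263 of the 20392 probes had a limma p under 0.05. Of the 4 probes only the second Emp2 probe did, at 0.00742. Its mice lay 0.88 apart on the log2 scale from the lowest to the highest, and those of the others 0.46 (Ager), 0.44 (first Emp2 probe) and 0.23 (Vegfa). Genes with a steady fall are more likely to be picked, so these tests are not wholly independent of the choice.

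Mouse 4 was the lowest mouse for all 4 probes. Of 2994 probes below 0 on all 8 arrays, 60.2% were also lowest in mouse 4, against 36.96% of all probes with 8 values, and the wide spread of the Cy3 array of mouse 4 stood beside this. On the Cy5 arrays alone, mouse 4 was lowest for 4 of 4 probes, and on the Cy3 arrays alone for 3 of 4, with mouse 3 lowest for Ager. In units of the interquartile range of each array, the ratios of Vegfa ran from -1.65 to -0.88, with -0.88 on the Cy3 array of mouse 4, and there Ager was at -0.91 and the Emp2 probes at -1.31 and -2.06. Without that array the means were -0.80 for Ager, -0.72 and -1.10 for the Emp2 probes, and -0.70 for Vegfa.

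The dye was tested on the difference of the 2 arrays of each mouse, Cy5 minus Cy3. Arrays with the transgenic RNA in Cy5 gave the higher ratio in 4 of 4 mice for both Emp2 probes and Vegfa and in 3 of 4 for Ager. The mean differences were 0.07 for Ager, 0.20 and 0.38 for the Emp2 probes and 0.07 for Vegfa, and none passed limma (adjusted p = 0.717, 0.308, 0.171 and 0.653). For the second Emp2 probe the unadjusted limma p was 0.0166. Of all 20392 probes tested, 0.0049% passed after adjustment. Without adjustment 4912 of them had a limma p under 0.05, so low unadjusted values for the dye were common. The second Emp2 probe averaged -0.98 ± 0.29 on the Cy5 arrays and -1.36 ± 0.47 on the Cy3 arrays (SD, n = 4 each), below 0 in both.

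With Emp2 averaged over its 2 probes, Ager and Vegfa lay closer to each other over the arrays than either did to Emp2. This rests on the averaging. The first Emp2 probe had a mean of -0.78, near Ager (-0.78) and Vegfa (-0.71), and the second had -1.17. Ranks of the single Emp2 probes were not computed. By the root mean square difference of log2 ratios over the 8 arrays, Vegfa was the nearest to Ager of 8644 other named genes, at 0.15. Seen from Vegfa, Ager was at rank 13. Emp2 was at rank 186 for Ager and 555 for Vegfa, at 0.34 and 0.35. Pearson correlations over the 8 arrays were 0.86 between Ager and Vegfa, 0.41 between Ager and Emp2 and 0.65 between Emp2 and Vegfa; these points share mice, arrays and the pool, and the values are descriptions.

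After Vegfa, the named genes nearest to Ager were Ctnna1 (0.17), which encodes alpha-catenin of adherens junctions, Mafk (0.19), Fam3c (0.20) and Syf2 (0.22). Those nearest to Vegfa were Fam3c (0.09), Mafk (0.11), Ctnna1 (0.12), Ugp2 (0.13) and Tspan2 (0.14). So 3 genes, Ctnna1, Mafk and Fam3c, stood near both. Those nearest to Emp2 were Ltbp4 (0.12), a binding protein of latent TGF-beta, Casp4 (0.13), Gsn (0.14), which encodes the actin-severing protein gelsolin, Igfbp4 (0.14) and Pard6g (0.15). This measure favours genes at a like mean, and the 5 genes nearest to Emp2 were among the 5 of neither Ager nor Vegfa.

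Other genes of type 1 alveolar cells were mostly lower where they were called. Of 39 listed genes besides the 3, 19 were measured, and 8 were lower, 1 was higher and 10 did not pass (limma over all 8692 named genes, adjusted p under 0.05). Over all named genes 18.4% were lower and 13.5% higher. The median of the 19 was -0.26 on the log2 scale, against -0.01 over all genes. This list was drawn up with earlier results of these data known and is no independent evidence of a direction.

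Timp3, an inhibitor of metalloproteinases, fell to 47.6% of the pool (-1.07 ± 0.23, SD, n = 4, adjusted p = 0.00106) averaged over 4 probes between -1.42 and -0.08. The membrane trafficking gene Mal2 fell to 48.2% (-1.05 ± 0.22, adjusted p = 0.00106). Limch1 fell by 0.80 ± 0.25 on the log2 scale over 3 probes and Dpysl2 by 0.60 ± 0.15 over 2, of which 1 read -1.37 and the other 0.18. Aqp5, the water channel gene of type 1 cells, fell to 68.5% of the pool (-0.55 ± 0.24, adjusted p = 0.00883), with mice at -0.64, -0.26, -0.82 and -0.45. These 5 calls held under each of 11 alternative settings. All genes of this list, lower or higher, were measured in whole lung, and which cells gave their ratios was not tested.

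The chloride channel family genes Clic3 (-0.42 ± 0.26) and Clic5 (-0.30 ± 0.14) and the keratin gene Krt7 (-0.27 ± 0.16) also fell, at adjusted p between 0.0245 and 0.0458, and each call was lost under several settings. Clic5 lost its call without any 1 of the 4 mice (adjusted p = 0.0555 to 0.121) and with the mouse as a random block (0.057), and it averaged -0.52 on the Cy5 arrays and -0.07 on the Cy3 arrays (adjusted p = 0.727 on Cy3 alone). Clic3 lost it without mouse 1, 3 or 4 (0.0645 to 0.0726) and on the Cy3 arrays alone (-0.26, adjusted p = 0.188). Krt7 lost it without any 1 of the 4 mice (0.0753 to 0.167). Krt7 also lost it without the Cy3 array of mouse 4 (0.0764), on the Cy5 arrays alone (0.375), with arrays centred (0.0518) and with placeholders kept (0.0572). S100a6 was the only gene of the list called higher, at 166.6% of the pool (0.74 ± 0.14, adjusted p = 0.00165). It encodes a calcium-binding protein that many other cells make, and on the Cy3 arrays alone it missed the threshold (0.39, adjusted p = 0.0546).

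Of the defining genes of type 1 cells, Hopx was not measured, Ager and Aqp5 were lower, and Pdpn, which encodes podoplanin and is also made by lymphatic vessels and other cells, did not pass (0.02 ± 0.14, adjusted p = 0.905), with mice between -0.12 and 0.16. So the measured defining genes were not all lower. Pdpn was read by 1 probe, and spot intensities were not used, so whether that probe detects Pdpn is unknown. Among the genes that did not pass, the largest mean ratios were those of Icam1 (-0.34 ± 0.34), Igfbp2 (0.29 ± 0.34), Pmp22 (-0.26 ± 0.78) and Spock2 (-0.14 ± 0.20). Icam1 passed as lower with the mouse as a random block (adjusted p = 0.0457), and Igfbp2 as higher without mouse 4 (0.0339).

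**Figure D3:**
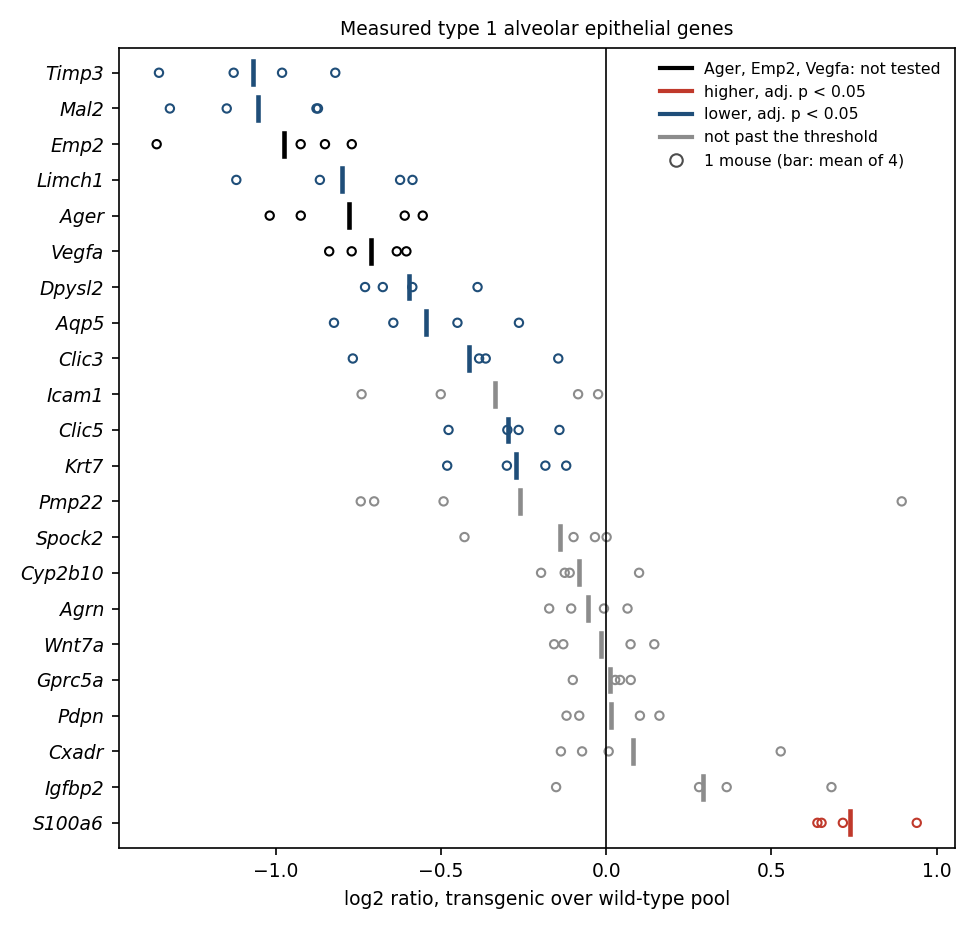
Log2 ratio of transgenic lung over the wild-type pool (horizontal axis) for Ager, Emp2 and Vegfa and the 19 other measured genes of type 1 alveolar epithelium (vertical axis, by mean). Open circles are the 4 mice and bars their mean, in blue for genes called lower, red for higher, grey for neither and black for the 3 chosen genes. Timp3 (-1.07) and Mal2 (-1.05) lie below Emp2 (-0.98), and the mouse far to the right in Pmp22 is mouse 4.

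Emp2 belongs to the family of Pmp22, Emp1, Emp3 and Lim2, of which Emp3 and Pmp22 were measured. Emp3, which is expressed by leukocytes and other cells, rose to 127% of the pool (0.34 ± 0.11, adjusted p = 0.0149), the mean of probes at 0.69 and 0.002. It missed the threshold when mouse 1, 2 or 3 was left out (adjusted p = 0.0574 to 0.0709) and on the Cy3 arrays alone (0.0578). Pmp22 did not pass (adjusted p = 0.466), with mice at -0.49, -0.70, -0.74 and 0.89. The arrays of mouse 4 disagreed for Pmp22, with -0.976 in Cy5 and 2.764 in Cy3, and without that Cy3 array Pmp22 passed as lower (-0.73, adjusted p = 0.00254). Without mouse 4 altogether it also passed (-0.65, adjusted p = 0.0109).

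In the list of this family with the integrins and kinases that EMP2 works with, 7 of 16 genes were measured. Of these, 1 was lower (14.3%, against 18.4% of all named genes) and 2 were higher (28.6%, against 13.5%). Itgb1, the gene of the integrin beta 1 chain, fell to 68.4% of the pool (-0.55 ± 0.22, adjusted p = 0.00721) as the mean of 6 probes between -0.96 and 0.30. Itga3, which encodes the alpha 3 chain that pairs with it in epithelium, rose to 152% (0.61 ± 0.08, adjusted p = 0.00207), with mice between 0.52 and 0.71. Itgb5 (-0.29 ± 0.36), Itga6 (0.20 ± 0.38) and the kinase gene Src (-0.07 ± 0.12) did not pass.

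Among ligands of RAGE and the proteases that shed it, 13 of 18 genes were measured, with a median of 0.12. Of these, 4 were lower (30.8%, against 18.4% of all named genes). Higher were 3 (23.1%, against 13.5%), and 5 with the mouse as a random block. The S100 genes went both ways. S100a4 rose to 277% of the pool (1.47 ± 0.32, adjusted p = 8.6e-04) and S100a6 rose as given above, while S100a8 (-1.09 ± 0.66, adjusted p = 0.0112) and S100a9 (-0.42 ± 0.30, adjusted p = 0.0307) fell. S100a8 stood at -0.11 in mouse 1 and between -1.55 and -1.32 in the others, and its call was lost without mouse 4 (adjusted p = 0.0555). S100a9 had probes at -1.04 and 0.19. It lost its call without mouse 2, 3 or 4 (0.0882 to 0.104) and on the Cy3 arrays alone (0.0684).

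App, the gene of the amyloid precursor protein, whose peptide product binds RAGE, fell to 55.2% of the pool (-0.86 ± 0.42, adjusted p = 0.00695), and the complement gene C1qa rose to 371% (1.89 ± 0.75, adjusted p = 0.0028). C1qa is made by macrophages and stands in that list as well. Of the proteases, Mmp9 fell (-0.37 ± 0.08, adjusted p = 0.00976; probes at -0.74 and 0.002). Adam10 (0.32 ± 0.28, adjusted p = 0.0671) and Adam17 (-0.29 ± 0.25, adjusted p = 0.0739) did not pass. S100b was the other of the larger ratios that did not pass (0.28 ± 0.27), followed by S100a11 (0.13 ± 0.14).

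The ligands and receptors around Vegfa were lower in 4 and higher in 0 of 8 measured genes of 15, with a median of -0.32. The share called lower was 50%, against 18.4% of all named genes, of which 13.5% were higher. Of the 8, 0 had a limma p under 0.05 and a ratio above 0 without adjustment, and the highest mean ratio was 0.04. Nrp1, the gene of neuropilin 1, a co-receptor of VEGF-A, fell to 57.5% of the pool (-0.80 ± 0.16, adjusted p = 0.00149), with mice at -0.85, -0.80, -0.58 and -0.96. Vegfb, a ligand of the receptor FLT1, fell to 70.96% (-0.50 ± 0.17, adjusted p = 0.00666). Flt1 itself fell to 66% (-0.60 ± 0.33, adjusted p = 0.0118), the mean of probes at -1.10 and -0.10. All mice were below 0 for these 3 genes, and their calls held under each of 11 alternative settings.

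Pdgfa, a growth factor gene of the same superfamily, had a log2 ratio of -0.36 ± 0.25 and also fell (adjusted p = 0.0367). Its call was lost without mouse 1, 3 or 4 (0.0951 to 0.122), on the Cy3 arrays alone (0.0905) and with placeholders kept (0.0546). Pdgfd (-0.27 ± 0.29), Flt4 (-0.14 ± 0.34), Nrp2 (0.04 ± 0.06) and Pdgfb (0.02 ± 0.27) did not pass. Kdr, which encodes the main signalling receptor of VEGF-A, and Vegfc, Vegfd and Pgf were not analysed here. The median of the 8 genes was -0.19, -0.37, -0.27 and -0.54 in mice 1 to 4.

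**Figure D4:**
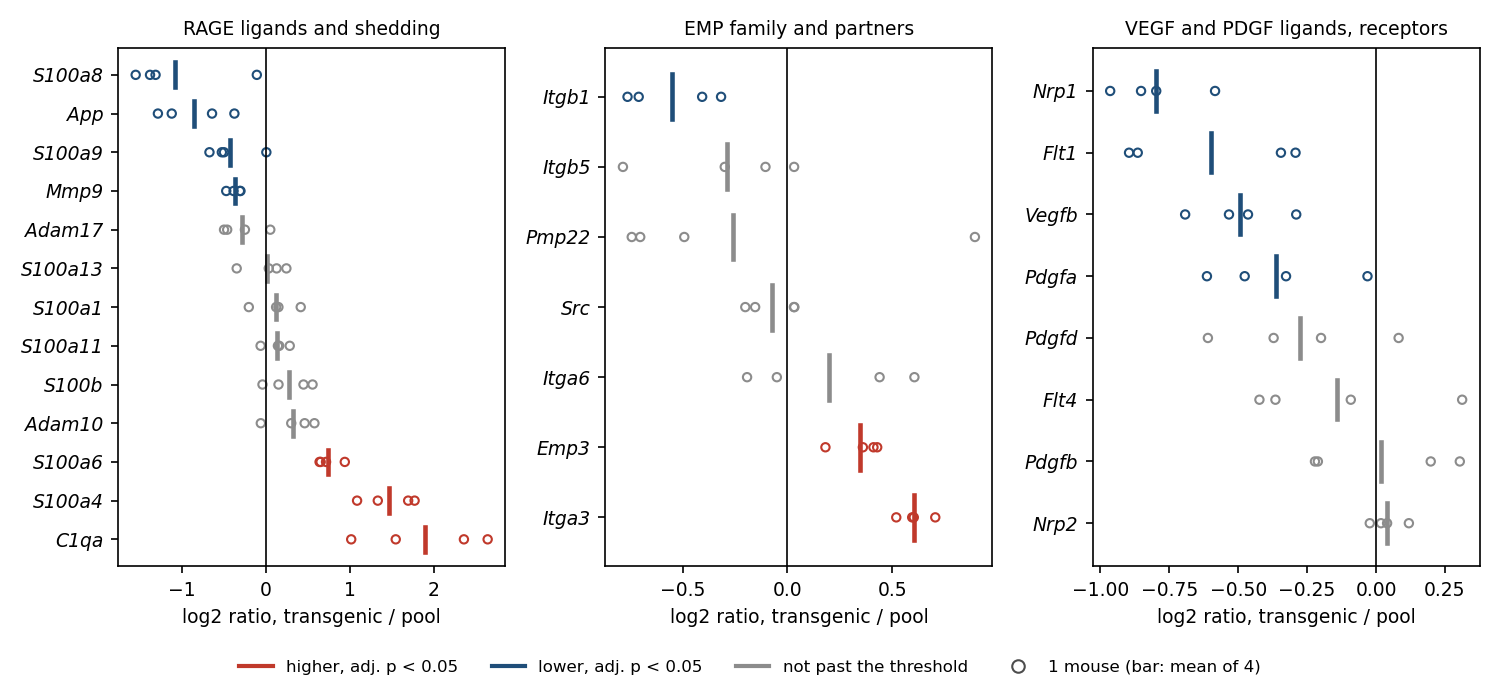
Log2 ratio of transgenic lung over the wild-type pool (horizontal axes) for measured genes of 3 lists (vertical axes, by mean), which hold RAGE ligands and shedding proteases, the EMP family with integrin partners, and VEGF and PDGF ligands with receptors. Open circles are the 4 mice and bars their mean, coloured by call; in the third panel the called genes Nrp1, Flt1, Vegfb and Pdgfa all lie below 0, and in the first the S100 genes lie on both sides.

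Hypoxia raises Vegfa in many cells, and of 17 measured genes of the hypoxia response 5 were lower (29.4%, against 18.4% of all named genes) and 2 higher (11.8%, against 13.5%), with a median of -0.22. The lower count was 3 without mouse 1, 3 or 4 and 3 with placeholders kept. Bnip3l (-0.57 ± 0.16, adjusted p = 0.00405), P4ha1 (-0.42 ± 0.27), Higd1a (-0.41 ± 0.09, probes at -0.80 and -0.03) and Bnip3 (-0.29 ± 0.18) fell. Hk2, the gene of hexokinase 2, rose by 0.88 ± 0.08 (adjusted p = 8.1e-04) and Egln3, a prolyl hydroxylase gene that is itself induced by hypoxia, by 0.63 ± 0.25 (adjusted p = 0.00574). P4ha1 lost its call without mouse 1 or 2 (adjusted p = 0.0535 and 0.0626) and on the Cy5 arrays alone (0.06965). Bnip3 lost it without any 1 of the 4 mice (0.0664 to 0.172) and with the mouse as a random block (0.0631). Bnip3 also lost it with placeholders kept (0.0574) and on the Cy3 arrays alone (-0.06, adjusted p = 0.758).

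Genes of lung endothelium, on which VEGF-A acts, were lower in 5 (29.4%, against 18.4% of all named genes) and higher in 2 (11.8%, against 13.5%) of 17 measured, with a median of -0.13. Flt1, given above, is among the lower genes of this list as well. Icam2 fell to 50.3% of the pool (-0.99 ± 0.48, adjusted p = 0.0059), the endothelin receptor gene Ednrb by 0.87 ± 0.33 over probes at -1.56 and -0.19, and the endoglin gene Eng by 0.61 ± 0.29. Sox17 (0.57 ± 0.17) and Ramp2 (0.40 ± 0.22) rose, and Ramp2 lost its call without mouse 1 or 2 (adjusted p = 0.0874 and 0.0838) and on the Cy3 arrays alone (0.15, adjusted p = 0.49).

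The neighbouring type 2 alveolar cells, which make surfactant and give rise to type 1 cells, had no gene called lower among 13 measured. Over all named genes 18.4% were lower. Higher were 3 of the 13 (23.1%, against 13.5% of all named genes). Without adjustment 1 had a limma p under 0.05 and a ratio below 0. With the mouse as a random block 1 gene was called lower. Their median was 0.003. Chil1 rose to 334% of the pool (1.74 ± 0.31, adjusted p = 5.8e-04), the complement gene Hc to 156% (0.64 ± 0.34, adjusted p = 0.0105) and the surfactant protein gene Sftpb to 129% (0.37 ± 0.19, adjusted p = 0.0214). Which cells of the lung gave these rises was not tested. Sftpb lost its call without mouse 1 or 2 (adjusted p = 0.0918 and 0.0879) and on the Cy3 arrays alone (0.26, adjusted p = 0.153). The other 10 genes did not pass, among them the surfactant protein gene Sftpc (-0.13 ± 0.26, adjusted p = 0.381). Abca3 (0.003 ± 0.09), Lpcat1 (-0.07 ± 0.10) and Napsa (0.26 ± 0.25) were also among these 10. Type 1 and type 2 genes were not tested against each other.

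A transitional epithelium appears between type 2 and type 1 cells after injury, and its 15 measured genes had a median of 0.27. Of these, 6 were higher (40%, against 13.5% of all named genes) and 1 was lower (6.67%, against 18.4%). Lgals3 (1.2 ± 0.58), Sfn (0.83 ± 0.36), the keratin gene Krt18 (0.70 ± 0.39) and the claudin gene Cldn4 (0.61 ± 0.29) led the rises, at adjusted p between 0.00531 and 0.0113, and Anxa1 fell (-0.37 ± 0.11, adjusted p = 0.0117; 0.0792 on the Cy5 arrays alone). Lgals3 is abundant in macrophages and also stands in that list. On the Cy3 arrays alone the higher count was 2, with Sfn (adjusted p = 0.155) and Krt18 (0.0725) among those lost, and Krt18 also lost its call without mouse 4 (0.0524). The 2 arrays of mouse 1 read 0.280 and 2.466 for Sfn. The other 8 genes did not pass, and Krt8 was among them (0.34 ± 0.42, adjusted p = 0.1215). The rest were Sprr1a (0.49), Krt19 (0.20), Fn1 (0.16), Cdkn1a (-0.18), Hbegf (-0.21), Ndrg1 (-0.24) and Tgm2 (-0.26).

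Regulators of alveolar epithelium were lower in 3 and higher in 1 of 15 measured, with a median of -0.09. The share called lower, 20%, was near the 18.4% of all named genes, and 6.67% were higher, against 13.5%. Foxp1 (-0.52 ± 0.33), the YAP target Ccn1 (-0.50 ± 0.31) and Fgf10 (-0.44 ± 0.23) fell, and Sox9 rose (0.44 ± 0.20), at adjusted p between 0.0129 and 0.0203. The calls of Foxp1, Ccn1 and Fgf10 all missed the threshold with Cy5 arrays only, at adjusted p between 0.0592 and 0.0725, and without mouse 2, between 0.0526 and 0.0804. Each was lost without 1 or 2 of the other mice as well, and with the mouse as a random block 5 genes of the list were lower. The call of Ccn1 was lost also without the Cy3 array of mouse 4 (adjusted p = 0.0598), and that of Sox9 held under each setting.

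Genes of other tissues and cells moved in the same comparison, in which 18.4% of all named genes were lower and 13.5% higher. Of 34 measured heart and skeletal muscle genes 25 were lower and 0 higher (also 0 higher at an unadjusted limma p under 0.05; median -0.41, from -0.56 to -0.30 over the mice), led by Mb (-1.81 ± 0.60), Ckmt2 (-1.40 ± 0.40), Pln (-1.20 ± 0.10) and Myh7 (-1.16 ± 0.44). Of 19 adipose tissue genes 10 were lower and 1 was higher (median -0.37, from -0.54 to -0.42 over the mice), led by Car3 (-2.25 ± 0.65), Adipoq (-2.04 ± 0.40), Thrsp (-1.97 ± 0.29) and Cidec (-1.55 ± 0.57), with Scd1 higher (0.36 ± 0.08, lost without mouse 1 at adjusted p = 0.0541). Of 13 club cell genes 6 were lower and 1 was higher (median -0.71, with mice at -1.13, 0.03, -1.10 and -0.12), led by Pon1 (-1.93 ± 0.86), Cyp4b1 (-1.38 ± 0.32), Gsta3 (-1.23 ± 0.60) and Ces1f (-0.91 ± 0.43), with Krt15 higher (0.80 ± 0.74, lost without mouse 1, 3 or 4 at adjusted p = 0.0627 to 0.142). Of 19 macrophage genes 13 were higher and 4 lower (median 1.2, from 0.69 to 1.68 over the mice). Chil3 (4.43 ± 0.41), Ccl9 (3.11 ± 0.81), Ctsk (2.72 ± 0.67) and Gpnmb (2.39 ± 1.48) led the rises, and Marco (-2.54 ± 0.28), Fabp4 (-1.16 ± 0.58), Fabp1 (-0.89 ± 0.23) and Lpl (-0.71 ± 0.33) fell. Fabp4 and Lpl also stand in the adipose tissue list and are counted as lower in both. The type 1 list had medians of -0.12, -0.16, -0.20 and -0.30 in mice 1 to 4. The part of these shifts in the ratios of Ager, Emp2 and Vegfa was not tested, and with 1 pool, tissue taken along with the pooled lungs and loss from the transgenic lungs cannot be told apart.

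**Figure D5:**
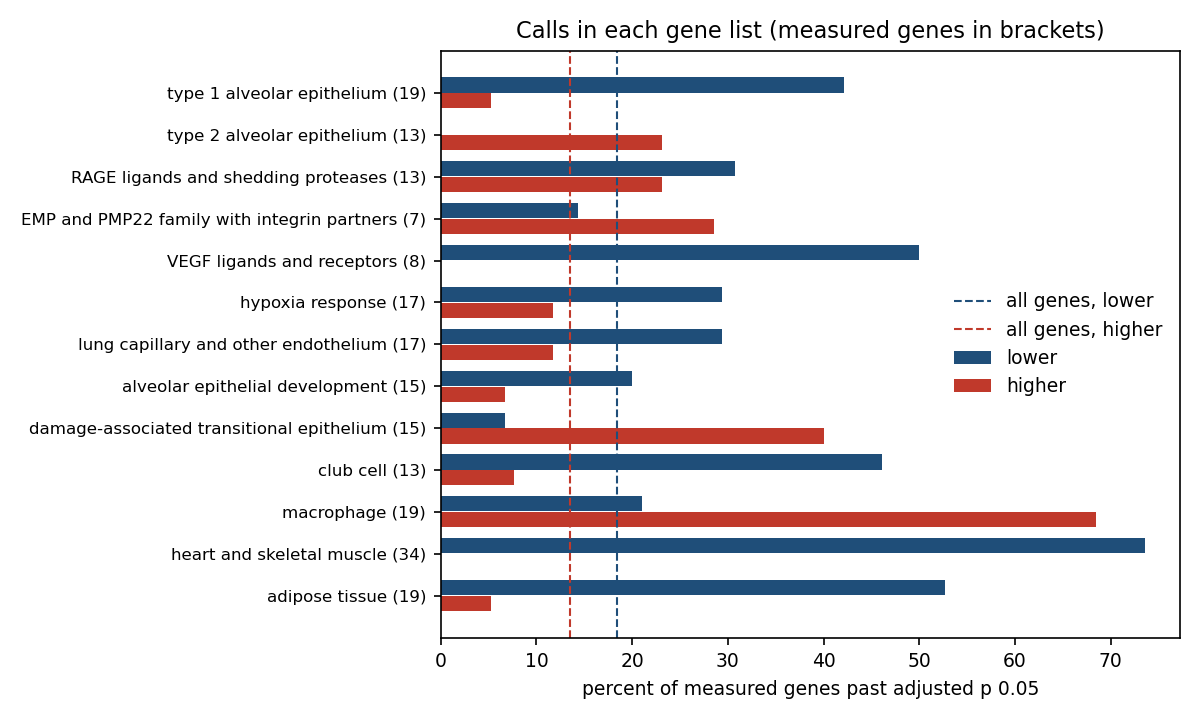
Percent of the measured genes of each list (vertical axis, number measured in brackets) that passed adjusted p 0.05 as lower (blue bars) or higher (red bars) in transgenic lung than in the pool. Dashed lines mark the same shares over all 8692 named genes, 18.4% lower and 13.5% higher; type 1 genes other than Ager, Emp2 and Vegfa reach 42.1% lower, and muscle genes 73.5%.

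The genes around Ager on the chromosome are given as a description, since Ager was chosen with its low ratio known. RefSeq lists 12 genes within 50 kb of Ager on chromosome 17, of which 7 were measured; these were chosen by position after the data had been seen. Pbx2 was lower (-0.25 ± 0.09, adjusted p = 0.0392), Agpat1 was higher (0.23 ± 0.07, adjusted p = 0.043), and Notch4 (-0.34 ± 0.31), Gpsm3 (0.23 ± 0.26), Ppt2 (0.17 ± 0.16), Fkbpl (-0.14 ± 0.02) and Atf6b (0.11 ± 0.12) did not pass. Over all named genes 18.4% were lower and 13.5% higher. All 7 had means closer to 0 than Ager at -0.78. Only 1.94% of the probes tested had a lower mean than Ager, so nothing is read from this. None of the 5 genes listed within 50 kb of Emp2 on chromosome 16 was measured.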

How the data were processed

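The authors deposited 1 log2 ratio for each probe on each array. How the authors corrected background, normalized or filtered them is not given in the sources used here; per the labels' protocols, the cDNA carried Cy3 or Cy5 after indirect labelling. The log2 scale follows from 498 placeholder values beyond 10 in size: on each array they differ from a value shared by 90 to 705 probes by the log2 of 1e-05. The placeholders were set to missing, and 706 values were missing as deposited. The values shared by 90 to 705 probes were kept as ratios in the counts and tests over all probes. Array medians lay between -0.09 and 0.01. Dye-swapped arrays of a mouse correlated at 0.389 to 0.685, so no array was turned.

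Names come from a platform annotation shifted by 11 rows (Spearman correlation of 0.224 over 4802 pairs of probes of a gene, at most 0.054 at any other of 121 shifts tried; annotation numbers above 20237 unused), which named 12296 probes, of which none had several genes. The 2 arrays of a mouse were averaged, and limma 3.58.1 (R 4.3.3) tested whether the mean of 4 mice differed from 0 (two-sided, Benjamini-Hochberg, adjusted p under 0.05) over 20621 probes and, after averaging the probes of a gene, 8692 genes. The pool is 1 control sample, so the test leaves out the spread of the control. Differences between mice and between dyes were tested with limma over 20392 probes. Tests were tested on simulated data. Tables and plots used Python 3.11.15.

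The 3 genes and the 13 lists were chosen with earlier results of these data known. List genes past the threshold and up to 4 others were named for the 3 pathway lists and type 1 genes, up to 4 in each direction for other lists, and the 5 nearest genes for each of the 3. Alternatives were placeholders kept, centring, arrays of 1 dye, each mouse left out, single arrays with the mouse as a random block, probes with 8 values and, chosen after seeing the data, the Cy3 array of mouse 4 left out.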

Additional observations from a re-analysis of the deposited data

Results flagged for a closer look

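None of the 4 probes of Ager, Emp2 and Vegfa had a mouse far from the others. The 82 list genes named by rule, without those named in addition, were checked for 1 mouse far from the others. In 5, its gap to the nearest other, as a share of the range of the 4 mice, was above Dixon's 95% critical value. Chance alone flags about 1 group in 20. Pmp22 had a share of 0.847, with mouse 4 at 0.89 and the others between -0.74 and -0.49, and the arrays of mouse 4 at -0.976 in Cy5 and 2.764 in Cy3. S100a8 had 0.835, with mouse 1 at -0.11 and both its arrays (-0.065 and -0.154) above all others. P4ha1 had 0.862, with mouse 4 at -0.82 against -0.34 to -0.26. Sfn had 0.869, with mouse 1 at 1.37 and its arrays at 0.280 in Cy5 and 2.466 in Cy3. Marco had 0.837, with mouse 3 at -2.96 against -2.46 to -2.36. For Pmp22 and Sfn the distant mouse rested on 1 of its 2 arrays.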

How the results depend on the processing

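The means of the 4 probes of Ager, Emp2 and Vegfa stayed below 0 and within 1 SD of the reported values under all 11 alternatives; over the mice left out in turn they ran from -0.85 to -0.70 for Ager, from -0.83 to -0.69 and from -1.30 to -1.01 for the Emp2 probes and from -0.75 to -0.67 for Vegfa. Calls over all probes, 5302 as reported, were 3190 on the Cy3 arrays alone and 2547 to 4064 with a mouse left out (2547 without mouse 1, 2834 without mouse 2); calls over genes, 2770, were 1546 to 2104 (1546 without mouse 1, 1715 without mouse 2). The lower share of probe calls was 56.9% as reported, 50.5% on the Cy5 arrays and 62.1% on the Cy3 arrays. Type 1 genes called lower, 8 as reported, were 5 to 6 with a mouse left out, with 5 without mouse 1 and 5 without mouse 3, and those called higher, 1, were 2 on the Cy5 arrays, 0 on the Cy3 arrays (limma, S100a6 at adjusted p = 0.0546) and 1 to 2 with a mouse left out. Probes that differed between mice, 201, were 78 with placeholders kept, 84 without a dye term (limma; 1909 at an unadjusted p under 0.05) and 0 to 495 with a mouse left out: 0 without mouse 1 (2965 unadjusted), 1 without mouse 2, 0 without mouse 3 (2177 unadjusted) and 495 without mouse 4. Probes with a dye effect, 1, were 0 to 1, with 0 without mouse 1 (4767 unadjusted). The causes were not tested. Of 67 named list genes called, 47 kept their call under every alternative; 11 lost it on the Cy3 arrays alone, 7 on the Cy5 arrays alone and 10 to 12 with a given mouse left out. Spot intensities were not used here, so signal over background is unknown. No transgenic mouse could be paired with a control of its own, because there is only 1 group and its control is 1 pool.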
